A study of Mus musculus with 6 samples.

Results

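Glycolysis, the pentose phosphate pathway and the conversion of pyruvate were examined gene by gene in macrophages of mouse epididymal fat. The members were 36 genes named for these steps, from glucose transporters to pyruvate dehydrogenase. Each was taken as the row of the array table whose annotation gives its symbol, and where several rows did, as the one with the highest mean over all 6 arrays. Of the 36, 33 were measured, out of 31722 genes tested in all, and Gpi1, Eno1 and G6pdx were not analysed here. The samples came from male C57BL/6J mice that received normal chow (NCD, 3 pools of 20 mice) or a 60% fat diet (HFD, 3 pools of 10 mice) for 16 weeks from 6 weeks of age and were 22 weeks old. The fat was digested with collagenase, and macrophages were pulled from the stromal vascular fraction with magnetic beads and an antibody against the product of Adgre1, an antigen of macrophages in general. Each pool gave 1 Affymetrix array from 100 ng of RNA, and array values are listed below in the order NCD1, NCD2, NCD3 against HFD1, HFD2, HFD3. All mice carried the same strain background with no transgene in the labels, and pools, not single mice, were the replicates.

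Glycolysis splits glucose into pyruvate in the cytosol. Hexokinases trap glucose as its phosphate, phosphofructokinase commits it to the pathway, and the lower steps, from aldolase to pyruvate kinase, yield ATP and NADH. The pentose phosphate pathway diverts glucose phosphate to make NADPH and ribose phosphate, and its non-oxidative arm returns sugars to glycolysis. Pyruvate leaves as lactate through lactate dehydrogenase and the monocarboxylate transporters, or enters mitochondrial metabolism through pyruvate dehydrogenase, which the Pdk kinases switch off. Macrophages are known to raise glycolysis when they respond to inflammatory signals, and several of these genes are classical targets of the hypoxia-inducible factors.

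After the high-fat diet 5 of 8 measured genes from aldolase to pyruvate kinase and 2 of 5 of the pentose phosphate pathway rose. Of 3 glucose transporters and 2 monocarboxylate transporters 0 were called. With 7.73% of all genes called, groups this small cannot show that transport was spared. Of the 33 genes, 9 rose and 3 fell at an adjusted p below 0.05 (limma across all genes, Benjamini-Hochberg). Those called made up 36.4% of the members, beside 7.73% of all genes tested, where 4.9% rose and 2.83% fell. The genes that rose were Hk3, Pfkfb4, Tpi1, Pgk1, Pgam1, Eno2, Pkm, Pgd and Tkt, and those that fell were Pfkl, Pfkfb3 and Ldhb. The median change over the 33 was 0.32 on the log2 scale, HFD minus NCD, beside 0.01 over all genes tested. The members were chosen with earlier results of these data known, so the contrasts with all genes are not independent evidence. In 19 members every HFD array lay above every NCD array, beside 17.5% of all genes, and in 4 every HFD array lay below, beside 12.8%. Many of the genes tested were dim: 47.5% had a mean below the level of the antigenomic background probes (6.23), but of the members only Aldoc did. When genes below that level were left out, 16 of 32 members were called, beside 18.2% of the genes that remained. The shares without overlap were not counted again among those genes, so the 17.5% and 12.8% include dim genes. The calls depended on single arrays: Hk3 and Eno2 were called without each array in turn, and they were the only members called without NCD2, HFD1, HFD2 or HFD3. Calls over all genes fell as well, to 1.49%, 3.38%, 1.29% and 1.41% without NCD2, HFD1, HFD2 and HFD3. Without NCD1, 18 members were called, among them all 12, beside 15.6% of all genes. Without NCD3, 11 were called, 10 of them shared with the 12, beside 5.95% of all genes.

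**Figure D1:**
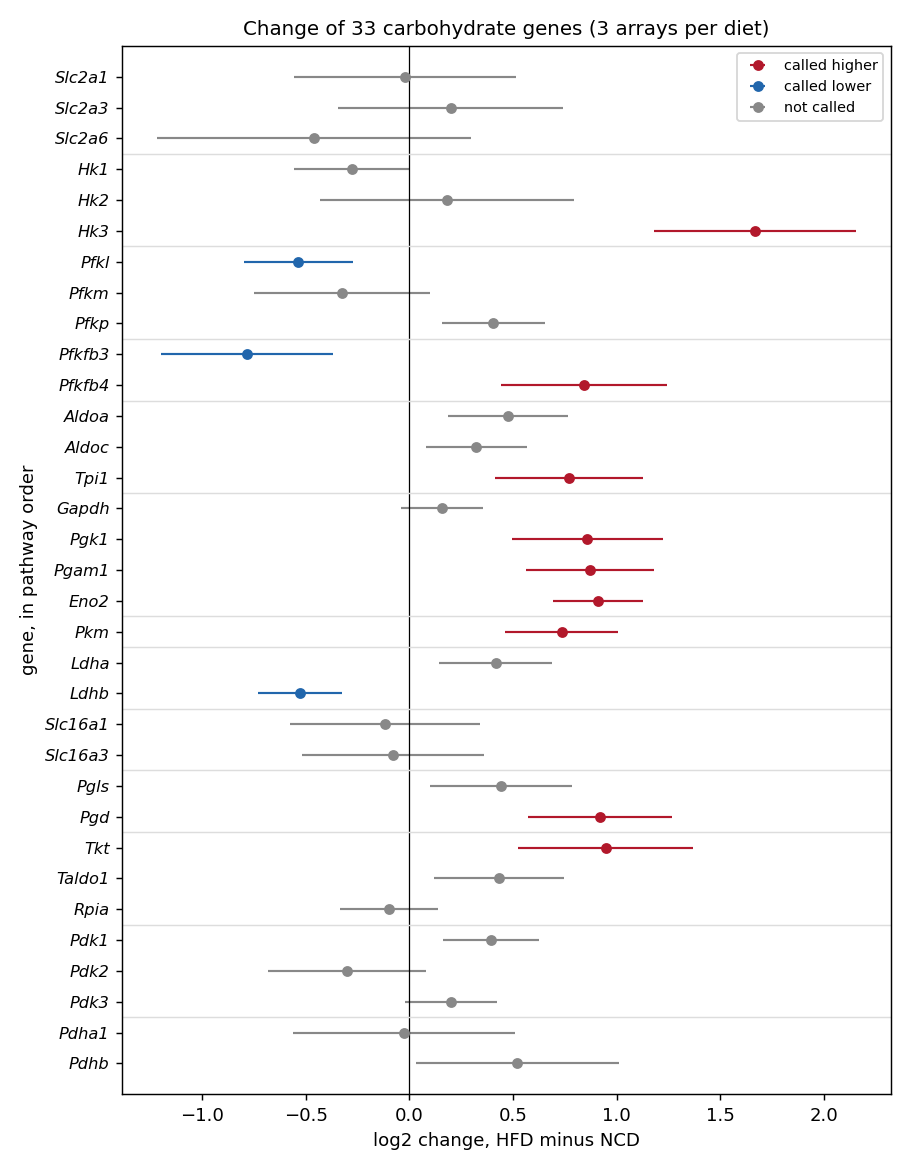
The log2 change, HFD minus NCD, of the 33 measured genes in pathway order; points are the fitted change with its 95% interval from limma (3 arrays per diet), grey lines part the steps, and colour marks the call. The genes from aldolase to pyruvate kinase all lie to the right of 0, whereas the hexokinases, phosphofructokinases and Pfkfb enzymes spread to both sides.

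The pools also differed in other cells and in proliferation, and the part of these in the results was not tested except where a value is given. Macrophage markers, 0 of 10 below background, averaged 14.98 to 15.21 on the log2 scale on 5 arrays and 14.31 on NCD3. Of these 10, Fcgr1 (1.43) and Cd68 (1.2006) rose, Mertk fell (−0.49), and 7 were not called. The 16 endothelial markers averaged 11.69 to 14.09 on the NCD arrays and 10.71 to 12.07 on the HFD arrays, with all 16 lower in the mean after HFD, 1 of them called, and 0 below background. Smooth muscle and pericyte markers (9 of 14 called lower, 7.43 to 8.21 on HFD against 9.25 to 10.90 on NCD arrays) and mesothelial markers (10 of 10 lower, 5.80 to 6.01 against 7.48 to 8.19) were lower too. Of the fibroblast markers 6 of 12 rose and 1 fell, of the eosinophil and mast cell markers 5 of 12 rose, of the dendritic cell markers 2 of 8 fell, and of the neutrophil, lymphocyte, adipocyte and erythroid lists 0 were called (with array means up to 8.73 on HFD3 for neutrophils, against 6.64 to 7.84 on the others). Cell cycle genes rose in 26 of 27 cases. In pooled RNA, fewer cells of a type and less RNA per cell cannot be told apart. With the endothelial score as a covariate, Eno2 alone of the 12 stayed below an adjusted p of 0.05 (0.0433, limma), although all 12 kept their direction. Calls over all genes went from 7.73% to 1.89% in the same fit. The score was itself lower in the mean after HFD, so its part and that of diet cannot be fully told apart. The changes of Pfkfb4 (0.84 to 0.51) and Tkt (0.95 to 0.58) moved by over 1.5 times with the covariate. That of Pkm went from 0.73 to 0.68 and that of Ldhb from −0.53 to −0.50.

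**Figure D2:**
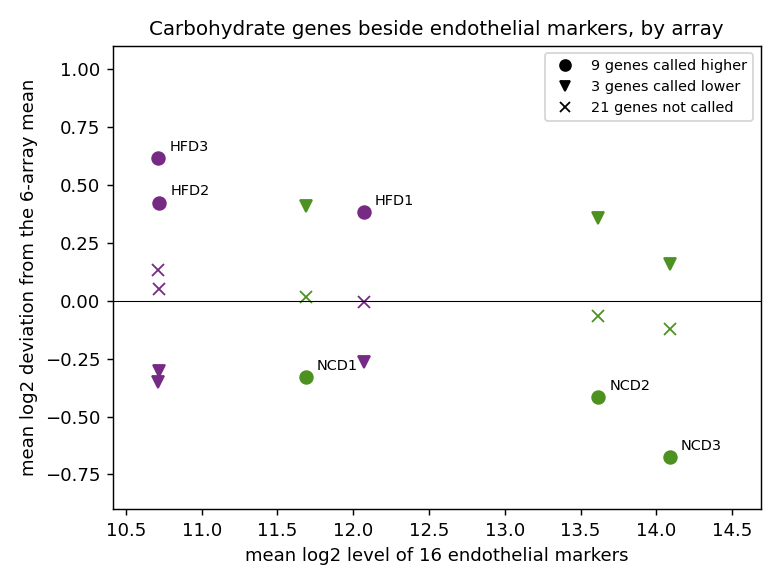
For each array, the mean log2 level of 16 endothelial markers (horizontal axis) and the mean log2 deviation of the members from their 6-array mean (vertical axis), for the genes called higher (circles), called lower (triangles) and not called (crosses); NCD arrays are green and HFD arrays purple. NCD2 and NCD3 have the highest endothelial levels (13.62 and 14.09); the parting of circles and triangles by diet follows from the calls that chose these genes.

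Most members' promoters carried the letters that hypoxia-inducible factors are known to bind, those of genes that changed and those of genes not called. The core searched was ACGTG or GCGTG on either strand, in the 250 bases before the first RefSeq start site listed for a gene (build GRCm38.p6); an ACGTG inside the palindrome CACGTG, an E-box, counts here on both strands. Of 33 measured members 32 were matched, and 27 of these (84.4%) held a core, beside 38.6% of all 27025 genes with a promoter. The core was there in 6 of 9 genes that rose, in 3 of 3 that fell and in 18 of 20 that were not called. Base composition went with it: the median GC content of these windows was 61.6% for the members and 52% for all genes, and the core holds a CpG. CACGTG itself was present in 4 of 32 members, none of them called (6.05% of all genes). The promoters of Hk3, Pfkfb4, Pgk1 and Pgam1 are shown because their genes rose and stand for different steps. That of Ldha is shown because it had the highest count of cores, 5, without a call. Its 2 CACGTG palindromes were each counted on both strands. Slc2a6 and Pdk3, also not called, held 4 cores each, none in a palindrome. Each sequence runs 5′ to 3′ over the 200 bases before the start site, and capitals mark the cores.
Hk3 promoter, GRCm38.p6, chr13:55021386-55021585, minus strand: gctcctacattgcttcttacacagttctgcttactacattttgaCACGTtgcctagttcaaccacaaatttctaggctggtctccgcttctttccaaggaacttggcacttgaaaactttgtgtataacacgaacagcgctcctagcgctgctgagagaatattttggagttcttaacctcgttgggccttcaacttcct
Pfkfb4 promoter, GRCm38.p6, chr9:108991702-108991901, plus strand: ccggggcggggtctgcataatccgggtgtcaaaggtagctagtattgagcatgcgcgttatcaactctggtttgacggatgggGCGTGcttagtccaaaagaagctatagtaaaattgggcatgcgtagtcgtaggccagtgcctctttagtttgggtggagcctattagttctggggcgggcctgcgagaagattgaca
Pgk1 promoter, GRCm38.p6, chrX:106186900-106187099, plus strand: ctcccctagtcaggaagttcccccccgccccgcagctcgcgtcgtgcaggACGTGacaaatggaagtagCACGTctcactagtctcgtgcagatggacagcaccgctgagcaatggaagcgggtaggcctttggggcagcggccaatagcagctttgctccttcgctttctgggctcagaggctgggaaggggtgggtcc
Pgam1 promoter, GRCm38.p6, chr19:41911671-41911870, plus strand: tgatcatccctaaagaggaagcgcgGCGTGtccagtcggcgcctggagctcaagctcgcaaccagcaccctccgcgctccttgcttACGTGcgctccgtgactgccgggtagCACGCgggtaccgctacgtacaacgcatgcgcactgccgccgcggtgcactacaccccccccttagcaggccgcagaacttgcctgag
Ldha promoter, GRCm38.p6, chr7:46845604-46845803, plus strand: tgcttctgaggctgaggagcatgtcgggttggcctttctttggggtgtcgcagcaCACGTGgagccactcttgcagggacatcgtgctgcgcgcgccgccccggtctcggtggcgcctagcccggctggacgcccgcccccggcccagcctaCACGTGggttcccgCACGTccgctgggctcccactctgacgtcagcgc
The Hk3 window held 1 core, Pfkfb4 1, Pgk1 2 and Pgam1 3, whereas the windows of Tpi1, Eno2 and Pkm, which also rose, held 0. A match to such short letters is not evidence of binding.

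Glucose entry showed no called change. Slc2a1, which encodes the widely expressed transporter GLUT1, was at 11.28, 11.41 and 12.08 against 11.46, 11.53 and 11.72. The HFD arrays lay inside the range of the NCD arrays, and the change was −0.02 ± 0.22 (SE, n = 3 per diet, adjusted p = 0.971, limma). Slc2a3, the gene of the high-affinity transporter GLUT3, read 7.66, 7.37 and 7.42 against 7.34, 7.52 and 8.19, so that HFD3 alone stood clear of the others (0.20 ± 0.23). Slc2a6, a lysosomal transporter of the family, was spread most widely on chow, at 8.96, 8.78 and 7.71, and lay at 7.96, 7.97 and 8.14 after HFD (−0.46 ± 0.32). NCD3 was below all HFD arrays for Slc2a6, and without it the change was −0.85 and called.

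Hexose phosphorylation held the largest change of the set. Hk3, a hexokinase found mainly in myeloid cells, was at 9.66, 9.59 and 9.03 on the NCD arrays and at 11.03, 10.92 and 11.33 on the HFD arrays. The lowest HFD array stood more than 1 log2 unit above the highest NCD array, and the rise was 3.17-fold (1.67 ± 0.20, adjusted p = 0.00956, limma). It ran from 1.47 to 1.78 without each array in turn and was 1.35 with the endothelial covariate (adjusted p = 0.0698). Hk1, the broadly expressed isozyme bound to mitochondria, went the other way in level, at 9.27, 9.43 and 9.60 against 9.15, 9.20 and 9.12. All 3 HFD arrays lay below, yet the change of −0.28 ± 0.12 was not called (adjusted p = 0.212). Hk2, the isozyme that insulin and hypoxia induce, was at 8.62, 8.01 and 7.64 against 8.14, 8.51 and 8.16, with overlapping groups and a change of 0.18 ± 0.26.

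The commitment step was divided among isozymes. Pfkl, the liver-type phosphofructokinase, read 9.18, 9.21 and 8.95 on chow and 8.63, 8.56 and 8.55 after HFD. It fell 1.45-fold (−0.54 ± 0.11, adjusted p = 0.0363, limma) with no overlap between the diets. Pfkp, the platelet type, was at 10.29, 10.20 and 10.21 against 10.63, 10.56 and 10.72. Its HFD arrays were all higher, by a mean of 0.41 ± 0.10, but the adjusted p was 0.0658; it was called under 6 of the other settings, among them median centring and the fit without NCD1. Pfkm, the muscle type, was at 7.38, 7.91 and 8.01 against 7.56, 7.34 and 7.41 (−0.33 ± 0.18), and the groups overlapped through NCD1, without which it was called lower.

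The enzymes that set fructose 2,6-bisphosphate, the main activator of phosphofructokinase, moved in opposite directions. Pfkfb3, the inducible isozyme with high kinase activity, was at 10.29, 10.02 and 9.69 against 9.34, 9.21 and 9.10. It fell 1.72-fold (−0.78 ± 0.17, adjusted p = 0.0442, limma), and no arrays overlapped. Pfkfb4, a hypoxia-inducible isozyme, read 8.82, 8.73 and 8.27 against 9.32, 9.51 and 9.53 and rose 1.79-fold (0.84 ± 0.17, adjusted p = 0.0330). Both calls were lost without NCD2 or any 1 of the HFD arrays, and with the endothelial covariate the change of Pfkfb4 was 0.51 (adjusted p = 0.267).

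From aldolase to pyruvate kinase 5 of 8 measured genes rose, and in all 8 every HFD array lay above every NCD array, in Aldoc at levels below background. Aldoa, the main aldolase outside liver and brain, was at 10.32, 10.56 and 10.40 against 10.88, 10.79 and 11.02 (0.47 ± 0.12, adjusted p = 0.0658); it was called under 4 other settings. Aldoc, the brain aldolase, was below the background level on every array of both diets (5.97, 5.64 and 5.73 against 6.04, 6.15 and 6.12), so no fold is given; it was called with array weights and without NCD1. Tpi1, triose phosphate isomerase, rose 1.70-fold from 11.39, 11.41 and 11.20 to 11.91, 12.04 and 12.36 (0.77 ± 0.15, adjusted p = 0.0315, limma). Its HFD arrays differed by more than the NCD arrays did, with HFD3 the highest.

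Gapdh, the dehydrogenase often taken as a reference gene, was at 17.61, 17.66 and 17.47 against 17.74, 17.70 and 17.77 and was not called (0.16 ± 0.08, adjusted p = 0.310). That row also carries the symbol of Gm7336, and the other Gapdh row, on chromosome 6 by its identifier as is the gene, was at 16.50, 16.53 and 16.49 against 16.53, 16.55 and 16.60 (0.05 ± 0.08). Pgk1, phosphoglycerate kinase, the first ATP-yielding step, was at 13.0005, 12.88 and 12.86 against 13.66, 13.59 and 14.07 and rose 1.81-fold (0.86 ± 0.15, adjusted p = 0.0242, limma). HFD3 stood highest for it, and no arrays overlapped. The identifier of that row carries chromosome 12 while Pgk1 lies on X; the row on X was 0.76 ± 0.15 higher after HFD (adjusted p = 0.0329). Pgam1, phosphoglycerate mutase, was at 13.21, 13.09 and 12.97 against 13.96, 13.80 and 14.13 in a row it shares with Pgam1-ps2, a pseudogene (0.87 ± 0.13, 1.83-fold, adjusted p = 0.0151). In the row of Pgam1 alone, on chromosome 19, the change was 0.75 ± 0.14 (adjusted p = 0.0251), and in a row shared with Gm8910 it was 1.06 ± 0.14. Whether these rows measure the gene or its near-identical copies cannot be told apart from the table, and with the rows on the genes' own chromosomes the same 12 members were called.

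Eno2, the enolase named for neurons, read 5.89, 5.88 and 5.72 on the NCD arrays, all below background, and 6.62, 6.80 and 6.79 on the HFD arrays. Against the background level of each NCD array the HFD mean was at least 1.47-fold higher (fitted change 0.91 ± 0.09, adjusted p = 0.00640, limma). With Hk3 it was the gene whose call held without each array, at 0.85 to 0.97. Pkm, pyruvate kinase of muscle and leukocytes, the last ATP-yielding step, was at 12.40, 12.44 and 12.21 against 13.11, 13.003 and 13.13. It rose 1.66-fold (0.73 ± 0.11, adjusted p = 0.0168), and the row does not part its splice forms.

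**Figure D3:**
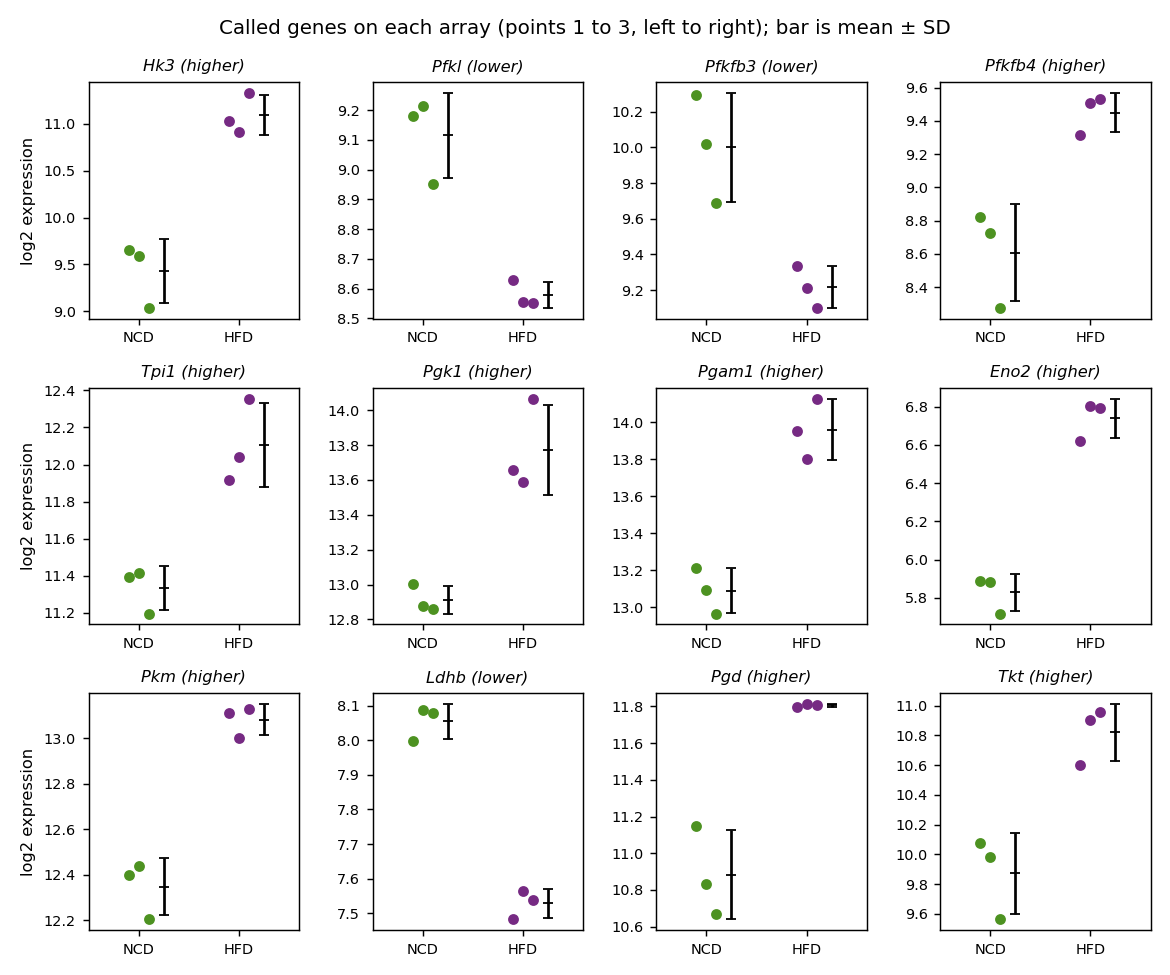
Log2 expression of the 12 called genes on each array, NCD in green and HFD in purple, with replicates 1 to 3 from left to right; the bar beside each group is mean ± SD (n = 3), and the vertical axes differ between panels. In each panel the diets do not overlap, and the 9 genes that rose all have their lowest value on NCD3.

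None of the 9 genes that rose overlapped between diets, so their lowest array had to be a chow array and their highest an HFD array. NCD3 was the lowest array for all 9, and HFD3 was the highest for 7 and HFD2 for 2. Among all 33 members NCD3 was the lowest array for 16 and HFD3 the highest for 17. These counts include the 9 and 7 just given, and no like count was made over all genes. The mean deviation of the 9 from the 6-array mean was −0.33, −0.41 and −0.68 on the chow arrays against 0.38, 0.42 and 0.61. The parting of these means by diet follows from the calls that chose the genes. NCD3 also had the lowest macrophage and the highest endothelial level of all arrays, and HFD3 had the highest neutrophil (8.73), cell cycle (10.59) and macrophage (15.21) levels; their part in the pattern was not tested. Over the 33 members the spread was wider on chow in 26 genes and wider after HFD in 7, with a median SD of 0.17 against 0.11, beside 0.15 and 0.11 over all genes.

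At the exit from glycolysis the lactate dehydrogenase subunits parted. Ldhb, the heart-type subunit, fell 1.44-fold from 7.997, 8.09 and 8.08 to 7.48, 7.56 and 7.54 (−0.53 ± 0.08, adjusted p = 0.0184, limma). Ldha, the muscle-type subunit, was at 12.22, 12.16 and 12.03 against 12.45, 12.56 and 12.65, above chow in every array but not called (0.42 ± 0.11, adjusted p = 0.0784); it was called under 5 other settings. Both genes had narrow groups that did not overlap. Slc16a1, the transporter MCT1, was at 9.55, 8.93 and 9.03 against 8.92, 8.97 and 9.26 (−0.12 ± 0.19), and Slc16a3, the lactate exporter MCT4, was at 7.70, 7.65 and 7.19 against 7.32, 7.27 and 7.72 (−0.08 ± 0.18). The diets overlapped in both.

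In the pentose phosphate pathway 2 of 5 measured genes rose, 1 in each arm. Pgd, the dehydrogenase of the second NADPH-yielding step, was at 11.15, 10.83 and 10.67 against 11.80, 11.81 and 11.81 and rose 1.89-fold (0.92 ± 0.15, adjusted p = 0.0175, limma). The HFD arrays were nearly equal (SD 0.0072) and the NCD arrays were spread (SD 0.243). Tkt, transketolase, which links the non-oxidative arm to glycolysis, rose 1.93-fold from 10.08, 9.98 and 9.56 to 10.60, 10.90 and 10.96 (0.95 ± 0.18, adjusted p = 0.0280), in a row that also carries the symbol of Mir3076. With the endothelial covariate its change was 0.58 (adjusted p = 0.214, limma). Pgls, the lactonase of the oxidative arm, read 7.16, 7.63 and 7.35 against 7.71, 7.95 and 7.81 (0.44 ± 0.14, adjusted p = 0.118). Taldo1, transaldolase, was at 9.53, 9.72 and 9.38 against 9.94, 9.88 and 10.11 (0.43 ± 0.13, adjusted p = 0.101). For both the HFD arrays were all higher, without a call. Rpia, ribose phosphate isomerase, was between 8.03 and 8.28 on all arrays (−0.10 ± 0.10).

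Pyruvate dehydrogenase and its kinases gave 0 calls among 5 measured genes. Pdk1, the kinase that hypoxia induces, was at 8.26, 8.43 and 8.35 against 8.69, 8.72 and 8.80; no arrays overlapped, and the change was 0.39 ± 0.10 (adjusted p = 0.0605, limma). It was called under 5 other settings, median centring and both filters on low values among them. Pdk2, the most widely expressed kinase, was at 8.10, 8.66 and 8.53 against 8.06, 8.23 and 8.09 (−0.30 ± 0.16). Pdk3 was at 8.50, 8.39 and 8.33 against 8.58, 8.61 and 8.62, a small shift with no overlap (0.20 ± 0.09, adjusted p = 0.253). Pdhb, which encodes the beta subunit of the E1 enzyme, was at 13.88, 13.08 and 13.54 against 13.92, 14.07 and 14.08 (0.52 ± 0.20, adjusted p = 0.182). Its partner Pdha1, the alpha subunit, was at 12.21, 11.33 and 11.75 against 11.70, 11.86 and 11.66 (−0.02 ± 0.22). Both subunits varied more between the chow arrays than between the HFD arrays, and NCD2 was the lowest array for each. Without NCD1, Pdk2 was called lower (adjusted p = 0.0368, limma) and Pdhb higher (0.0368).

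Whether isozymes of 1 step changed unequally was read from the within-array log2 difference of each pair, which compares changes and not levels. Of 16 pairs, 8 had differences that did not overlap between diets. The share of single genes without overlap, 30.4%, is not a like measure, because each pair value is a difference between genes. Pairs also share genes and so are not independent. For Hk3 minus Hk1, Pfkp minus Pfkl, Pfkfb4 minus Pfkfb3 and Ldha minus Ldhb the outcome was fixed by the single genes. In each, the first gene was higher in every HFD array and the second was lower in every HFD array. With 3 arrays against 3 an exact two-sided permutation test cannot go below p = 0.10, and the smallest p adjusted over the 16 pairs was 0.20, so that no pair could pass. Hk3 minus Hk1 was 0.39, 0.15 and −0.56 against 1.88, 1.72 and 2.21, a shift of 1.94 ± 0.32 (SE) towards Hk3. Hk3 minus Hk2 shifted by 1.48 ± 0.27. Pfkfb4 minus Pfkfb3 was −1.47, −1.29 and −1.41 on chow and −0.02, 0.29 and 0.43 after HFD (1.63 ± 0.14). The chow arrays kept this balance within a narrow band although both genes varied among them. Ldha minus Ldhb was 4.22, 4.07 and 3.95 against 4.97, 4.99 and 5.12 (0.94 ± 0.09), and Pfkp minus Pfkl was 1.11, 0.99 and 1.25 against 2.005, 2.005 and 2.17 (0.94 ± 0.09). Pfkp minus Pfkm shifted by 0.73 ± 0.23, Pdk1 minus Pdk2 by 0.70 ± 0.14 and Pdk1 minus Pdk3 by 0.19 ± 0.09. The other 8 pairs, among them all pairs of glucose transporters, the monocarboxylate transporters and the aldolases, overlapped between diets, with shifts of 0.04 to 0.66.

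**Figure D4:**
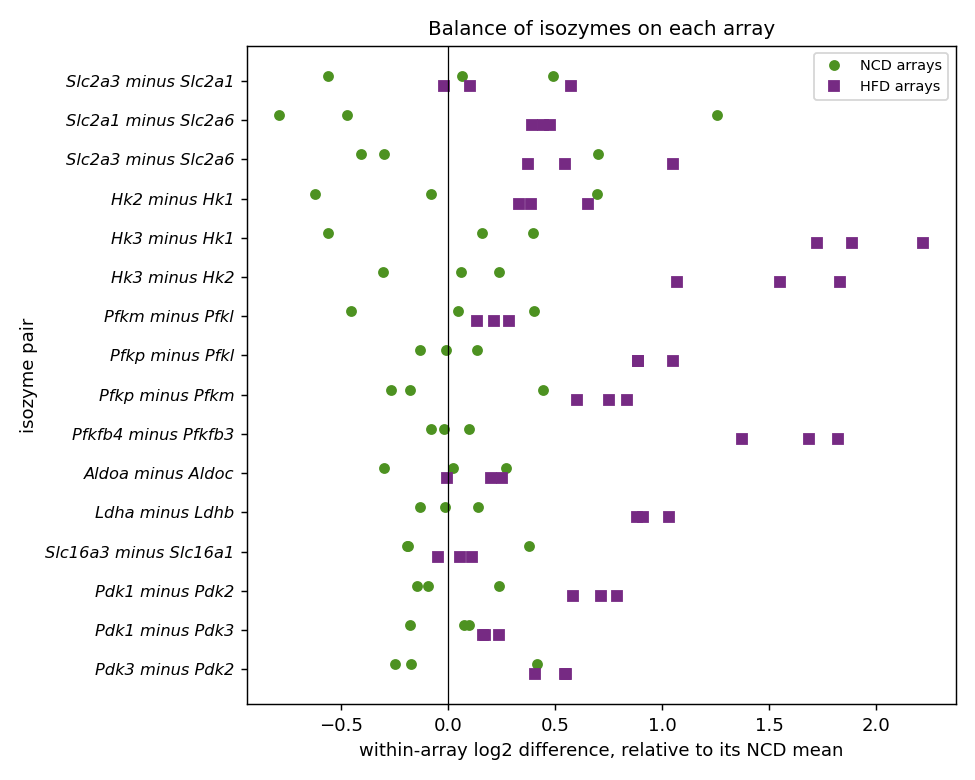
For each of 16 isozyme pairs, the within-array log2 difference relative to its mean on chow (horizontal axis), for NCD arrays (green circles) and HFD arrays (purple squares); the gene named first had the larger change. Hk3 minus Hk1, Pfkfb4 minus Pfkfb3, Pfkp minus Pfkl and Ldha minus Ldhb show the diets apart, as the single genes of these pairs already did. The glucose transporter pairs overlap.

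Beside these members, 142 genes of adjoining pathways and regulators were measured, and 13 of them were called, 10 higher and 3 lower, at a median of 0.03, beside the 7.73% called among all genes. The tricarboxylic acid cycle had 4 of 21 genes higher and 0 lower: Aco1, the cytosolic aconitase and iron sensor (0.96 ± 0.14), Sdhd (0.73 ± 0.13), Mdh1, the cytosolic malate dehydrogenase (0.80 ± 0.15), and Sdhc (0.75 ± 0.15). Of 24 further isozymes and regulators of glycolysis Galm, the enzyme that interconverts the anomers of glucose and galactose, rose 2.43-fold (1.28 ± 0.15, adjusted p = 0.00934, limma), and 0 fell. In glycogen, galactose and fructose metabolism Gyg, the primer of glycogen synthesis, rose by 1.21 ± 0.16 and Pygm, the muscle glycogen phosphorylase, fell by 1.09, among 17 genes. In the serine, glycerol and hexosamine branches Psat1, of serine synthesis, rose by 1.31 ± 0.22 and Uap1, of the hexosamine pathway, fell by 0.89, among 14. Among 12 other pentose phosphate genes and 15 others of pyruvate entry 0 were called, and the kinase Pdk4, at 10.20, 11.94 and 12.52 against 11.08, 11.12 and 11.70, was at −0.26 ± 0.57.

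Of 24 transcriptional and energy-sensing regulators 1 was called higher and 1 lower, beside 7.73% of all genes called. Hif1a, the alpha subunit of the hypoxia-inducible factor, was at 13.63, 13.41 and 13.91 against 13.17, 12.98 and 12.98, lower in every HFD array but not called (−0.61 ± 0.15, adjusted p = 0.0634, limma). It was called lower when genes below background (adjusted p = 0.0403) or the lowest 25% of genes by mean (0.0490) were left out. Myc, at −0.07 ± 0.27, overlapped between diets. Txnip, an inhibitor of glucose uptake, was at −0.88 ± 0.24 (adjusted p = 0.0799, limma), and was called lower with array weights (0.0233) and without NCD1 (0.00899). Of 24 regulators Rptor, the mTORC1 scaffold, rose (0.79 ± 0.12), and the kinase subunit Prkaa2 was called lower with every HFD array below background (at least 1.02-fold lower). Of 16 hypoxia-responsive genes outside glycolysis Vegfa, the vascular growth factor (0.78 ± 0.12), and Car9, a carbonic anhydrase below background on every NCD array (6.20, 6.27 and 5.9993 against 6.96, 7.01 and 7.03, at least 1.76-fold higher), rose and 0 fell, and the median of the list was −0.07. Of these 13 genes only Car9 was called without each array in turn.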

How the data were processed

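The values are log2 expression per transcript cluster, as deposited by the authors. Per the submitters' processing notes, RMA was used, beside Transcriptome Analysis Console 3.1.0.5 and Expression Console 1.4.1.46 of Affymetrix; the role of each and the build are not given in the sources used here. Control probe sets (6732) were left out. Of 65956 clusters 30604 carried 1 symbol, 2146 several and 33206 none. One cluster per symbol, the brightest on average, gave 31722 tested. Arrays have no read depth, and their number limits precision (median SE 0.118).

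Diets were compared with limma 3.58.1 in R 4.3.3 (lmFit, then eBayes with a trend), two-sided, Benjamini-Hochberg over all clusters tested, called below 0.05. On simulated data of this size 66.6% of 2-fold and 90.2% of 4-fold changes were recovered, with a mean of 8 false calls. The simulation changed 200 genes and drew noise independently for each gene. Differences in cell content shared by many genes were not simulated, so these figures need not hold for the pools. Background was the 95th percentile of 23 antigenomic probe sets. Isozyme pairs were compared by exact permutation. Array values were given for called genes and for steps with several isozymes; pathway genes were named where called, with Hif1a, Myc, Pdk4 and Txnip in any case. Members and lists were chosen with earlier results of these data known. Alternatives covered normalization, low-value filters, variance model, array weights, annotation, replicate block, an endothelial covariate and leaving out each array. Replicates were labelled biological; p-values measure the spread between pools.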

Additional observations from a re-analysis of the deposited data

How the results depend on the processing

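Leaving out each array moved the number of members called between 2 and 18 (2 to 13 higher, 0 to 5 lower), that of all genes between 408 and 4949 (291 to 2513 higher, 117 to 2436 lower), that of the adjoining pathway genes between 1 and 36, and that of isozyme pairs without overlap between 8 and 11. These fits have fewer samples. The replicate block called 0 members (0 higher, 0 lower; adjusted p of the 12 from 0.0616 to 0.137), 112 genes (71 higher, 41 lower) and 0 pathway genes. The labels give these arrays a replicate number and do not say whether same-numbered pools were handled together. Deviations of same-numbered arrays correlated at −0.46, −0.12 and −0.15, and those of other pairings at −0.31 to 0.40. Whether same-numbered pools shared handling cannot be told from these values. With the endothelial covariate 1 member (1 higher, 0 lower), 601 genes (255 higher, 346 lower) and 0 pathway genes were called. Array weights gave 4516 genes (2470 higher, 2046 lower) and 28 pathway genes, and leaving out genes below background gave 22 pathway genes. The cause was not tested.

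Changes that crossed 0 belonged to genes that were not called: Slc2a1 (0.020 with median centring, 0.025 with array weights, 0.28 with the covariate), Pdha1 (0.016 and 0.17 with the first and second of these), Myc (0.0020 with array weights), and with the covariate Slc2a3 (−0.17), Hk2 (−0.44), Pfkm (0.13) and Pdk4 (0.97). Without 1 array they ran from −0.18 to 0.22 for Slc2a1, −0.055 to 0.37 for Slc2a3, −0.045 to 0.45 for Hk2, −0.24 to 0.069 for Slc16a1, −0.24 to 0.015 for Slc16a3, −0.24 to 0.20 for Pdha1, −0.31 to 0.24 for Myc and −0.93 to 0.23 for Pdk4. The 12 called members kept their direction under all settings run. For most settings this was fixed in advance. Their diets did not overlap, so leaving out or weighting arrays could not reverse them. The filters, variance models and replicate block leave the change itself as it was. With clusters of 1 symbol only, 11 members were called, Tkt having no such cluster. The rows on the genes' own chromosomes were an alternative chosen after seeing the data.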
